A study of Mus musculus with 8 samples.

Results

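The 35 genes described here code for integrins and for the proteins that tie integrins to the actin cytoskeleton at focal adhesions. They were chosen by name, as 23 integrin subunits (15 alpha and 8 beta) and 12 adhesion adaptors, and all 35 were found in a table of 33249 genes. RNA-seq of mouse myocardium gave 8 libraries, 2 in each of 4 groups. MI stands for myocardial infarction, and the groups were fl/fl-Sham and fl/fl-MI as controls, and CKO-Sham and CKO-MI. The MI libraries are labelled day 42 after surgery, and the labels give no day for sham. In fl/fl mice Piezo1, a mechanosensitive cation channel, carries loxP sites and no Cre transgene is present. CKO mice are littermates that also carry the Myh6-Cre/Esr1* transgene, in which the cardiomyocyte-restricted Myh6 promoter drives a tamoxifen-inducible Cre fused to parts of the mouse estrogen receptor. Per the study's methods, tamoxifen was given at 4 weeks of age to delete Piezo1. At 8 weeks of age the left anterior descending artery was tied off for good, or sham surgery was done. The labels give neither sex nor strain, and they do not say whether the 2 libraries of a group came from separate animals, so p-values here measure only the spread between these libraries, which may be technical. The question was how the adhesion genes stood in the infarcted heart, and whether they differed between the genotypes.

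An integrin is a pair of an alpha and a beta subunit that spans the cell membrane. The alpha subunit largely sets the ligand, such as collagen, laminin or the RGD motif of fibronectin and vitronectin. The short tail of most beta subunits binds talin and kindlin, which switch the integrin on and link it to actin, while vinculin strengthens the link under load. In cardiomyocytes these complexes lie at costameres and intercalated discs, and in fibroblasts, endothelial cells and leukocytes they serve adhesion and migration.

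Library totals ranged from 73821747 to 88117573 counts. Low counts were mostly multiples of 4, so a read pair seems to stand for about 4 counts, which the sources used here do not state. Mitochondrial transcripts took 43.1% to 46.4% of counts in sham and 19.9% to 24.2% after MI. Levels below are CPM, that is, counts as a part of the library total after trimmed-mean (TMM) scaling between libraries. The targeted gene was not lower in the libraries labelled CKO. These are whole-gene counts of whole myocardium, and the study reports Piezo1 in other heart cells besides cardiomyocytes. The study checked the deletion by Western blot in isolated cardiomyocytes, which these counts cannot test. Piezo1 had 71.9 and 81.6 CPM in fl/fl-Sham, 76.3 and 87.9 in CKO-Sham, 53.3 and 64.5 in fl/fl-MI and 56.0 and 64.3 in CKO-MI. Esr1, the estrogen receptor gene that supplied the Cre fusion partner, had 8.32 and 6.38 CPM in fl/fl-Sham, 5.49 and 7.56 in CKO-Sham, 7.71 and 329.7 in fl/fl-MI and 704 and 401 in CKO-MI. It was low in both CKO-Sham libraries and high in fl/fl-MI 2, against both labels, and directions between genotypes below refer to libraries as labelled. The library fl/fl-MI 2 also stood apart in its atrial markers (Myl4, Myl7, Sln and Bmp10), which summed to 8073 CPM there and to at most 89.6 CPM in the other 7 libraries.

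Because the tail of the beta subunit is where talin and kindlin bind, the coding bases of that tail are shown for the beta subunits that carry its NPXY-type motifs. A motif was taken as a codon for asparagine (AAC or AAT), any other pair of codons, then a codon for tyrosine or phenylalanine, searched in the last 47 codons of the most abundant complete coding transcript of each gene in GENCODE M21 (mouse build GRCm38). Motifs are in capitals, and each line runs 5′ to 3′ from 3 codons before the first motif to the last codon before the stop.
Itgb1: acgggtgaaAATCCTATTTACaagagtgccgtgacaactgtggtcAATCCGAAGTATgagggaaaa
Itgb2: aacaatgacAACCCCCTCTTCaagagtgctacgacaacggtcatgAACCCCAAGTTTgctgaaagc
Itgb3: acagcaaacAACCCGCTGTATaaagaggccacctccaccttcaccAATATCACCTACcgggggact
Itgb5: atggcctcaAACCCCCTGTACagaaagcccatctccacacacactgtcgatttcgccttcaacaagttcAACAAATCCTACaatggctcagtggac
Itgb6: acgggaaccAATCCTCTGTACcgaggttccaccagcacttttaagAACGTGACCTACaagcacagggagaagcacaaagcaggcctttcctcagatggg
Itgb7: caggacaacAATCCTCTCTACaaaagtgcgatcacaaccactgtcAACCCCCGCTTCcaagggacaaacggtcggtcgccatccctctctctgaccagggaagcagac

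All 6 tails held a pair of motifs. From the start of the first motif to the start of the second there were 12 codons in Itgb1, Itgb2, Itgb3, Itgb6 and Itgb7 and 20 codons in Itgb5. The stretch for Itgb1 lay in exons 15 and 16 of 16, at chr8:128726184-128732085 on the plus strand with the intron included. That for Itgb5 lay in exons 14 and 15 of 15, at chr16:33947879-33948749 on the plus strand. No motif of this form was in the window for Itgb4 or Itgb8. Of the 15 alpha subunits, 11 coded for the membrane-proximal GFFKR motif letter by letter, and Itga8, Itga9, Itga10 and Itga11 did not.

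After MI most of the adhesion genes that changed were higher. In edgeR's quasi-likelihood test over both genotypes (4 MI against 4 sham libraries, adjusted over 14028 genes), 17 of the 35 members rose and 4 fell, while 14 did not pass adjusted p = 0.05. With TPM in place of TMM scaling the signs of Itga1, Itga6 and Ptk2 were positive. Over all genes tested, 22% were called higher and 18.3% lower, against 48.6% and 11.4% of the members with the same TMM scaling. Among integrin subunits 12 of 23 rose and 2 fell (Itga1 and Itga6). Among adaptors 5 of 12 rose (Vcl, Tln1, Tln2, Parva and Zyx) and 2 fell (Ptk2 and Lims2). The median log2 fold change of the members was 0.70, against 0.03 over all genes tested. The 4 MI libraries lay above the 4 sham libraries without overlap for 14 members and below them for 5, where 20.9% and 19.5% of all genes tested did so. All 35 members passed the filter of a mean FPKM of 0.5 over the 8 libraries, but 4 of them (Itga2, Itga4, Itgax and Itgb8) were under 0.5 in sham and passed only through the MI libraries, so that a difference was built into their passing. Of the other 31 members, 15 were called higher and 4 lower.

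**Figure D1:**
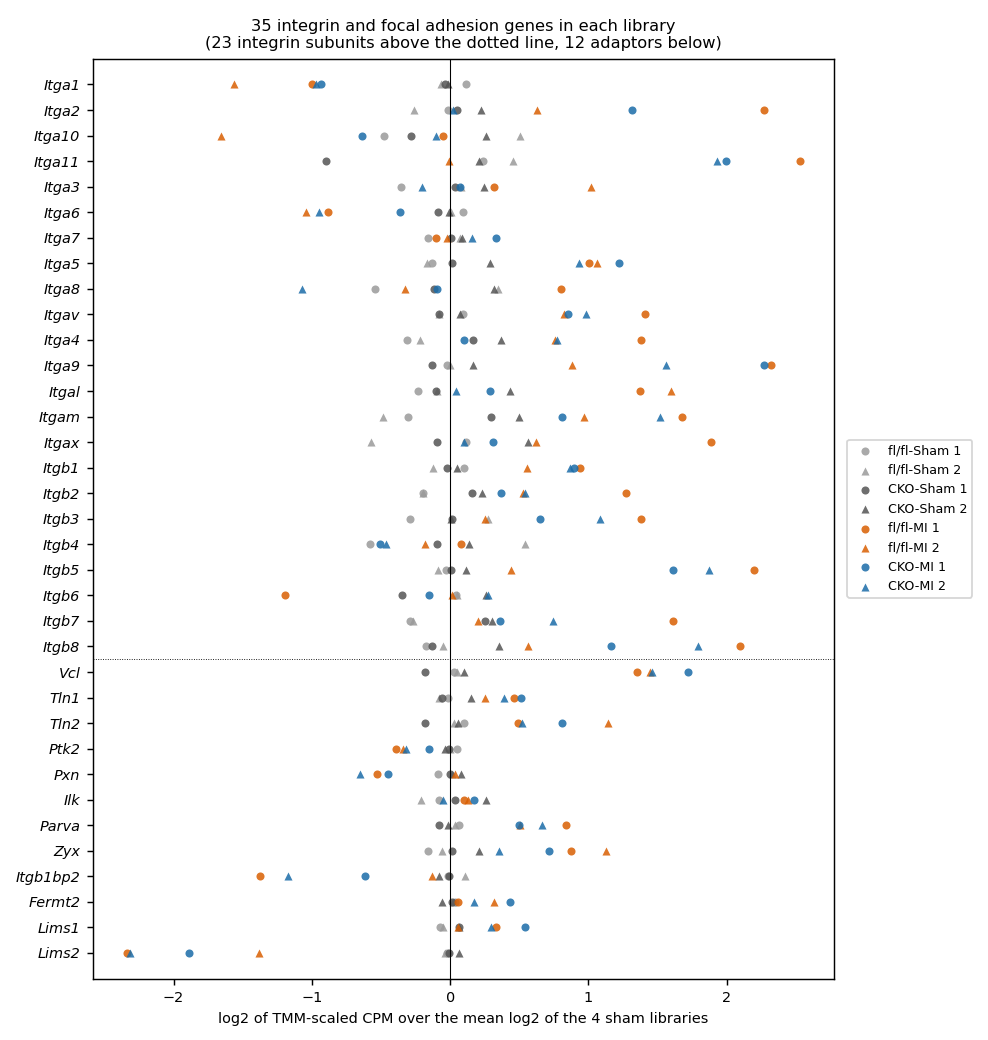
Each point is 1 library, plotted as log2 of TMM-scaled CPM over the mean log2 of the 4 sham libraries (x axis), for the 35 genes (y axis); gray marks sham, orange fl/fl-MI and blue CKO-MI, circles replicate 1 and triangles replicate 2. The sham points of well-expressed genes sit close to 0, the MI points of Vcl and Itga5 sit together to the right, and for Itgb5, Itgb8 and Itga11 the triangle of fl/fl-MI 2 lies nearest to the sham points.

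**Figure D2:**
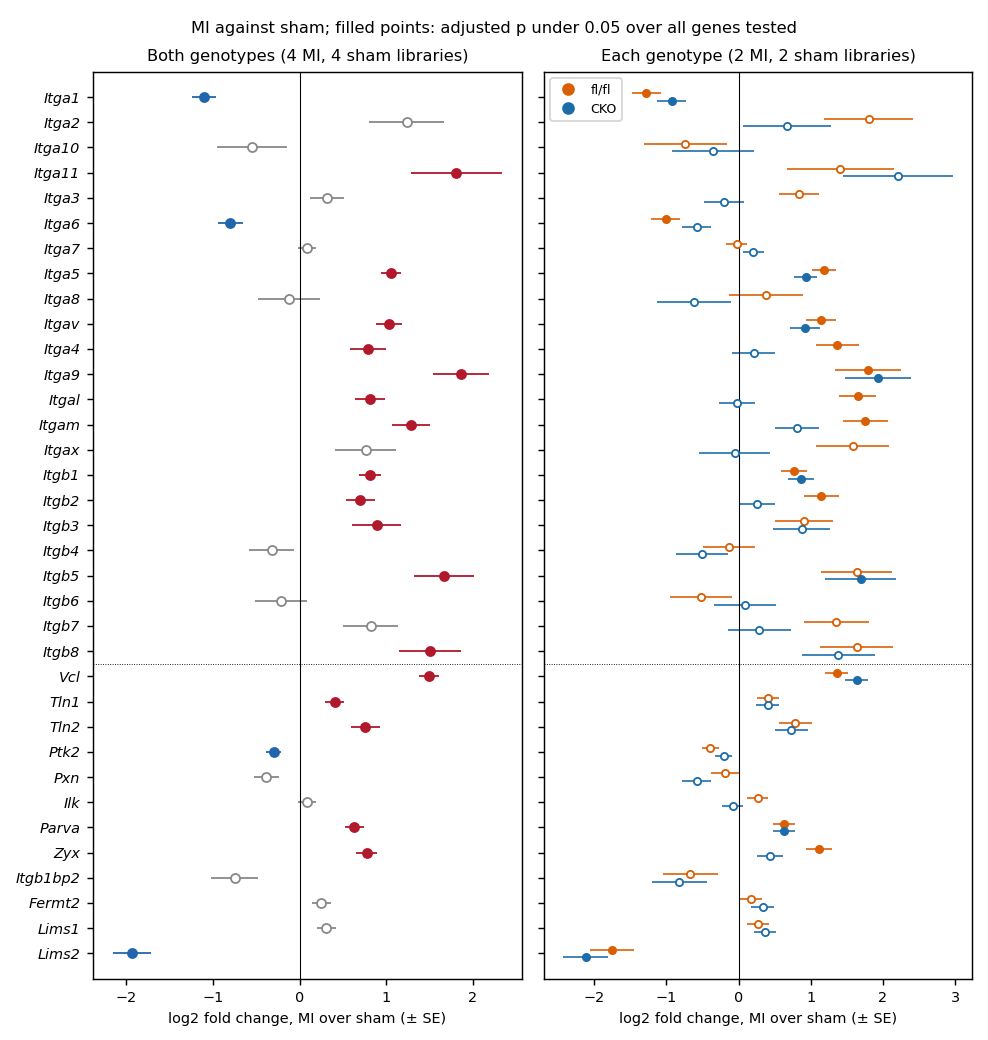
Points are log2 fold changes of MI over sham and bars their SE (x axis) for the 35 genes (y axis), over both genotypes on the left and within each genotype on the right; filled points have adjusted p under 0.05. On the left, with TMM scaling, 17 filled points lie to the right of 0 and 4 to the left, and on the right fewer are filled in either genotype.

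Of the beta subunits, 5 of 8 rose and none fell. Itgb5, which pairs with the alpha v subunit in a vitronectin receptor and is encoded at chr16:33829665-33949338, plus strand, had 69.8 and 67.3 CPM in fl/fl-Sham, 71.9 and 77.1 in CKO-Sham, 328 and 97.1 in fl/fl-MI and 219 and 261 in CKO-MI. All MI libraries were above all sham libraries, and the level in fl/fl-MI 2 was less than that in any other MI library. The log2 fold change was 1.66 ± 0.35 (SE; adjusted p = 0.00966). Without fl/fl-MI 2 it was 1.97 ± 0.10 (adjusted p = 6.85e-05), and without fl/fl-MI 1 it was 1.08 ± 0.10 (adjusted p = 0.000254).

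Itgb1, the shared partner of most alpha subunits of the heart, had 264 and 226 CPM in fl/fl-Sham, 243 and 256 in CKO-Sham, 472 and 363 in fl/fl-MI and 459 and 449 in CKO-MI. It rose 1.76-fold (log2 0.82 ± 0.13, adjusted p = 0.00354), with no overlap between MI and sham. Itgb8, a partner of alpha v that binds latent TGF-beta, had 2.33 and 2.54 CPM in fl/fl-Sham, 2.40 and 3.36 in CKO-Sham, 11.2 and 3.87 in fl/fl-MI and 5.89 and 9.10 in CKO-MI. It lay at low counts in sham and above them in each MI library, at a log2 fold change of 1.51 ± 0.36 (adjusted p = 0.0157), and is among the members that passed the filter only through MI (mean FPKM 0.191 in sham and 0.827 after MI). Itgb3, which joins alpha v or, in platelets, alpha IIb, had 3.68 and 5.43 CPM in fl/fl-Sham, 4.54 and 4.54 in CKO-Sham, 11.7 and 5.37 in fl/fl-MI and 7.06 and 9.55 in CKO-MI. Its MI value in fl/fl-MI 2 fell within the sham range, and its log2 fold change was 0.89 ± 0.28 (adjusted p = 0.0421). The call was lost in 7 of 8 refits without 1 library and kept only without fl/fl-MI 2, and without fl/fl-MI 1 the change was 0.53 ± 0.20 (adjusted p = 0.0646). The summed platelet markers, of which 3 of 5 passed the filter, were 11.2 to 16 CPM in sham and 13.5 to 33 CPM after MI, with none of the 5 at 0 in every library, and their part in the Itgb3 value was not tested. These markers include Itga2b, the gene of alpha IIb, which is also among the further adhesion genes below. Itga2b passed the filter only through MI (mean FPKM 0.394 in sham and 1.27 after MI).

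The leukocyte beta subunit Itgb2 rose as well and is given with the leukocyte alpha subunits. Itgb7, the partner of alpha 4 on lymphocytes, did not pass (log2 0.82 ± 0.32, adjusted p = 0.0761). Nor did Itgb4, the hemidesmosome subunit (log2 -0.32 ± 0.26, adjusted p = 0.345), or the epithelial Itgb6 (log2 -0.21 ± 0.30, adjusted p = 0.603).

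The makeup of the beta pool was read from gene FPKM, which is per length, as each subunit's share of the 8 subunits' sum. Itgb1 held 70.8% and 67.3% in fl/fl-Sham, 67.3% and 66.7% in CKO-Sham, 51.1% and 70.1% in fl/fl-MI and 61.0% and 56.2% in CKO-MI. Itgb5, the subunit with the wider spacing of motifs, held 21.5% and 23% in fl/fl-Sham, 22.9% and 23.1% in CKO-Sham, 40.8% and 21.6% in fl/fl-MI and 33.4% and 37.5% in CKO-MI. In 3 of 4 MI libraries the Itgb5 share was above all sham libraries and the Itgb1 share below them, and in fl/fl-MI 2 both were within the sham range. The other 6 subunits together filled the rest, with Itgb2 the largest of them at 4.39% to 5.78% in sham and 3.21% to 5.21% after MI. These shares are a description and were not tested.

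**Figure D3:**
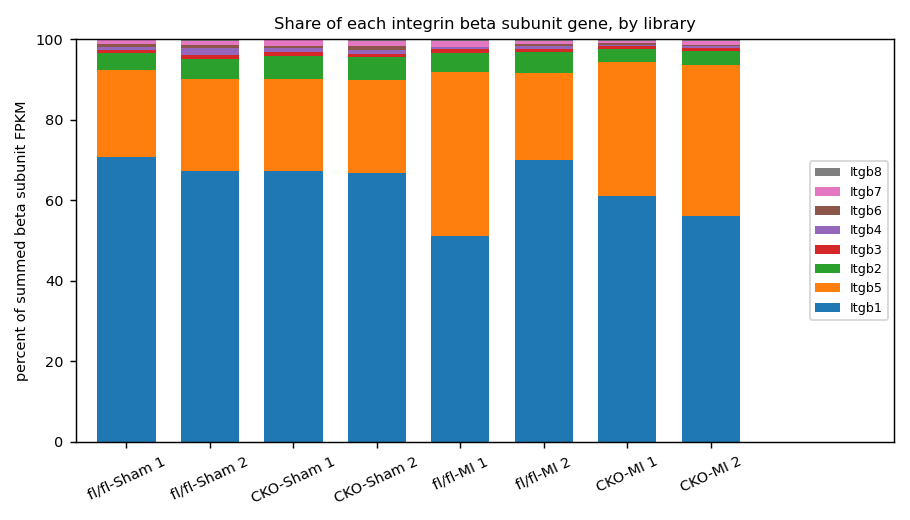
Bars show, for each library (x axis), the percent of summed FPKM of the 8 integrin beta subunit genes that falls to each gene (y axis, 0 to 100). Itgb5 (orange) takes a larger part in fl/fl-MI 1, CKO-MI 1 and CKO-MI 2 than in the sham libraries, and the bar of fl/fl-MI 2 resembles those of sham.

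Of the alpha subunits that read the RGD motif, Itga5 and Itgav rose. Itga5, the fibronectin receptor alpha subunit (chr15:103344286-103366763, minus strand), had 58.3 and 57.0 CPM in fl/fl-Sham, 64.3 and 78.0 in CKO-Sham, 128 and 133 in fl/fl-MI and 149 and 122 in CKO-MI. The MI libraries lay close together, all above sham, and the log2 fold change was 1.05 ± 0.11 (adjusted p = 0.00110). Itgav, the alpha v subunit that pairs with Itgb3, Itgb5, Itgb6 and Itgb8, had 24.3 and 21.6 CPM in fl/fl-Sham, 21.6 and 24 in CKO-Sham, 60.7 and 40.5 in fl/fl-MI and 41.3 and 45.1 in CKO-MI. It rose by 1.03 ± 0.14 on the log2 scale (adjusted p = 0.00241), again with no overlap. Itga8, known from mesenchymal cells, did not pass (log2 -0.12 ± 0.36, adjusted p = 0.806).

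Itga9, which binds tenascin and osteopontin (chr9:118606690-118901003, plus strand), had 23.9 and 24.3 CPM in fl/fl-Sham, 22.2 and 27.3 in CKO-Sham, 121 and 44.9 in fl/fl-MI and 117 and 71.7 in CKO-MI. Its log2 fold change of 1.86 ± 0.32 (adjusted p = 0.00502) was the highest of the 35 members with all 8 libraries. Without fl/fl-MI 2 Itga11 was higher (2.19 ± 0.25 against 2.13 ± 0.18), and without fl/fl-MI 1 Itga9 was at 1.40 ± 0.18 and Vcl above it. Itga4, whose ligand is Vcam1 and fibronectin, had 5.53 and 5.91 CPM in fl/fl-Sham, 7.67 and 8.84 in CKO-Sham, 17.9 and 11.6 in fl/fl-MI and 7.36 and 11.7 in CKO-MI. CKO-MI 1 lay within the sham range for Itga4, and the log2 fold change was 0.79 ± 0.21 (adjusted p = 0.0236). Itga4 also passed the filter only through MI (mean FPKM 0.398 in sham and 1.05 after MI).

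The collagen receptors did not move together. Itga11, the fibroblast receptor for fibrillar collagen (chr9:62677826-62783982, plus strand), had 3.78 and 4.39 CPM in fl/fl-Sham, 1.72 and 3.70 in CKO-Sham, 18.5 and 3.18 in fl/fl-MI and 12.8 and 12.2 in CKO-MI. The value in fl/fl-MI 2 fell within the sham range, while the other MI libraries were above it, and the log2 fold change was 1.81 ± 0.53 (adjusted p = 0.0319). Without fl/fl-MI 2 it was 2.19 ± 0.25 (adjusted p = 0.000501) and without fl/fl-MI 1 0.91 ± 0.27 (adjusted p = 0.0261), and the call was lost without any 1 of the other 6 libraries (highest adjusted p = 0.113). Itga1, a receptor for collagen and laminin found on vessel and stromal cells, went the other way, with 123 and 109 CPM in fl/fl-Sham, 111 and 112 in CKO-Sham, 56.9 and 38.4 in fl/fl-MI and 59.4 and 58.1 in CKO-MI. All MI libraries were below all sham libraries, at a log2 fold change of -1.10 ± 0.14 (adjusted p = 0.00174). Itga2 and Itga10 did not pass, with log2 fold changes of 1.24 ± 0.43 (adjusted p = 0.0566) and -0.55 ± 0.40 (adjusted p = 0.312).

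None of the laminin receptors was called higher with all 8 libraries and TMM scaling. Itga6, a laminin receptor of endothelial and epithelial cells, had 139 and 130.2 CPM in fl/fl-Sham, 122 and 129 in CKO-Sham, 70.4 and 63.0 in fl/fl-MI and 101 and 67.2 in CKO-MI. It fell without overlap, at a log2 fold change of -0.80 ± 0.14 (adjusted p = 0.00581). Itga7, the main laminin receptor alpha subunit of cardiac and skeletal muscle, had 90.1 and 106 CPM in fl/fl-Sham, 101 and 107 in CKO-Sham, 93.6 and 99.1 in fl/fl-MI and 126 and 113 in CKO-MI. MI and sham overlapped, at a log2 fold change of 0.09 ± 0.10 (adjusted p = 0.518). Itga3 had 9.61 and 13 CPM in fl/fl-Sham, 12.6 and 14.6 in CKO-Sham, 15.3 and 24.9 in fl/fl-MI and 12.9 and 10.7 in CKO-MI and did not pass either (log2 0.31 ± 0.20, adjusted p = 0.236).

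Bulk tissue mixes cell types, so that fewer cells of a type and less RNA per cell cannot be told apart. The 6 endothelial markers (none at 0) summed to 1463 to 1579 CPM in sham and 475 to 744 CPM after MI, and all 6 fell. The 6 smooth muscle and pericyte markers summed to 1156 to 1307 and 323 to 563 CPM, with 3 of 6 lower. Both moved the same way as Itga1 and Itga6, and their part in those values was not tested. The 8 fibroblast markers went from 3103 to 3388 CPM in sham to 4624 to 8226 CPM after MI, with 7 of 8 higher. The 5 markers of activated fibroblasts went from 134 to 187 CPM to 355 to 1793 CPM, with 3 of 5 higher. Among the MI libraries the activated list was highest in fl/fl-MI 1 and lowest in fl/fl-MI 2. The same libraries stood at the ends for Itga11, Itgb5 and Itgb8. They did so too for Itgav, Itga9, Itga10, Itgb1, Itgb3 and the lymphocyte subunit Itgb7. The part of fibroblasts in these values was not tested. Of the 9 cardiomyocyte markers 3 were called higher and 3 lower, and their sum overlapped, at 33868 to 38701 CPM in sham and 21525 to 46319 CPM after MI.

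Of the leukocyte alpha subunits Itgam and Itgal rose, as did their beta partner. Itgam, the CD11b subunit of macrophages and neutrophils, had 9.69 and 8.55 CPM in fl/fl-Sham, 14.7 and 16.9 in CKO-Sham, 38.2 and 23.4 in fl/fl-MI and 20.9 and 34.3 in CKO-MI. The groups did not overlap, and the log2 fold change was 1.28 ± 0.22 (adjusted p = 0.00470). Its partner Itgb2, or CD18, had 12.2 and 12.2 CPM in fl/fl-Sham, 15.6 and 16.4 in CKO-Sham, 33.8 and 20.2 in fl/fl-MI and 18 and 20.3 in CKO-MI, a log2 fold change of 0.70 ± 0.17 (adjusted p = 0.0170).

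Itgal, the CD11a subunit of lymphocytes and other leukocytes, had 3.90 and 4.28 CPM in fl/fl-Sham, 4.27 and 6.17 in CKO-Sham, 11.8 and 13.8 in fl/fl-MI and 5.59 and 4.72 in CKO-MI. Both fl/fl-MI values were above all other libraries and both CKO-MI values lay within the sham range, and the log2 fold change over both genotypes was 0.81 ± 0.18 (adjusted p = 0.0110). Itgax, or CD11c, had 1.80 and 1.12 CPM in fl/fl-Sham, 1.56 and 2.46 in CKO-Sham, 6.15 and 2.56 in fl/fl-MI and 2.07 and 1.78 in CKO-MI and did not pass (log2 0.76 ± 0.35, adjusted p = 0.124). The 7 macrophage markers, of which 2 rose, overlapped between sham (218 to 294 CPM) and MI (201 to 473 CPM), and after MI they were highest in fl/fl-MI 1 and lowest in CKO-MI 1. The 8 lymphocyte markers, of which 2 passed the filter, summed to 5.67 to 11.3 CPM in sham and 5.64 to 9.65 CPM after MI, and the 4 neutrophil markers to 7.37 to 11.8 and 5.10 to 11.3 CPM. None of these markers was at 0 in every library, and their part in these integrin values was not tested.

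Vinculin rose most among the adaptors. Vcl, which binds talin and actin (chr14:20929398-21033676, plus strand), had 45.8 and 46.5 CPM in fl/fl-Sham, 39.5 and 48.2 in CKO-Sham, 114 and 122 in fl/fl-MI and 148 and 124 in CKO-MI. The MI libraries were all above sham and close to each other, and Vcl rose 2.82-fold (log2 1.49 ± 0.11, adjusted p = 0.000533). Ap3m1 overlaps Vcl on the opposite strand with counts equal to 77.6% of those of Vcl, and whether the counting used strand is not given in the sources used here.

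The Vcl promoter is shown because vinculin had the lowest adjusted p of the members and its window holds a CArG box, the site known to be read by serum response factor. The 250 bases before the RefSeq start (GRCm38.p6, chr14:20929148-20929397, plus strand) run 5′ to 3′ with the CArG box in capitals.
Vcl: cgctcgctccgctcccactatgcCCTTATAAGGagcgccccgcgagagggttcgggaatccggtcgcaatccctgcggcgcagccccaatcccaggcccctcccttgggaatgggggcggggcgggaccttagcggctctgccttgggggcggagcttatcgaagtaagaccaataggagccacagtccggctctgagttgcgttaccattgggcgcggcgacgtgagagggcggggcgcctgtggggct

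Promoter windows (250 bases before and 50 after the start) were at hand for 23 of the 35 members, as 28 windows. The CArG box was in 3 of the 28 (Vcl, Fermt2 and Itgb6) and in 1.63% of all 32851 windows, on either strand. Fermt2 and Itgb6 did not pass the test after MI. The TEAD motif GGAATG was in 3 of the 28 windows (Vcl, Itgb1 and Itga10) against 14.7% of all, and the AP-1 motif TGANTCA in 4 (Itga3, Itga9, Itgax and Zyx) against 7.81%. The SP1 motif GGGCGG was in 14 against 35.7%, and TATAAA in 1 (Lims1) against 13.6%. Matches describe letters in these windows and not binding.

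Both talins, which carry force from the beta tail to actin, were higher. Tln1, the broadly expressed talin, had 155 and 148 CPM in fl/fl-Sham, 150.2 and 174 in CKO-Sham, 216 and 186 in fl/fl-MI and 223 and 205 in CKO-MI, with a log2 fold change of 0.40 ± 0.11 (adjusted p = 0.0241). Tln2, the talin of costameres in adult muscle, had 44.0 and 41.8 CPM in fl/fl-Sham, 36.2 and 42.7 in CKO-Sham, 57.5 and 90.4 in fl/fl-MI and 71.9 and 59.0 in CKO-MI, with a log2 fold change of 0.76 ± 0.16 (adjusted p = 0.0111). MI and sham did not overlap for either. Zyx, the mechanosensitive LIM protein zyxin, had 55.0 and 59.2 CPM in fl/fl-Sham, 62.3 and 71.0 in CKO-Sham, 113 and 135 in fl/fl-MI and 101 and 78.5 in CKO-MI and rose by 0.77 ± 0.13 (log2; adjusted p = 0.00404), also without overlap.

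The complex of integrin-linked kinase, PINCH and parvin moved in parts. Parva, alpha-parvin, had 49.9 and 48.9 CPM in fl/fl-Sham, 45.2 and 47.3 in CKO-Sham, 85.2 and 67.8 in fl/fl-MI and 67.3 and 75.8 in CKO-MI. It rose by 0.63 ± 0.11 (log2; adjusted p = 0.00489). Lims2, or PINCH-2, had 142 and 141 CPM in fl/fl-Sham, 143 and 150.5 in CKO-Sham, 28.5 and 55.3 in fl/fl-MI and 38.8 and 28.9 in CKO-MI. It fell to 0.261 of its sham level (log2 -1.94 ± 0.22, adjusted p = 0.00121), the greatest fall of the 35 members, and MI and sham were far from overlapping. Lims1, or PINCH-1, had 77.7 and 78.7 CPM in fl/fl-Sham, 85.2 and 85.4 in CKO-Sham, 103 and 84.9 in fl/fl-MI and 119 and 100.3 in CKO-MI and just missed the threshold (log2 0.31 ± 0.11, adjusted p = 0.0562). Ilk itself had 55.2 and 50.6 CPM in fl/fl-Sham, 59.8 and 69.9 in CKO-Sham, 62.8 and 64.0 in fl/fl-MI and 66.0 and 56.3 in CKO-MI, overlapping between sham and MI (log2 0.09 ± 0.10, adjusted p = 0.529). Taf10 overlaps Ilk on the opposite strand with counts equal to 65.5% of those of Ilk.

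Ptk2, the focal adhesion kinase FAK, had 44.0 and 42.7 CPM in fl/fl-Sham, 42.4 and 41.5 in CKO-Sham, 32.5 and 33.6 in fl/fl-MI and 38.4 and 34.2 in CKO-MI. It fell by a small amount, at a log2 fold change of -0.30 ± 0.09 (adjusted p = 0.0293), and its sign was positive with total-count, FPKM or TPM scaling. Pxn, paxillin, which docks FAK, did not pass (log2 -0.38 ± 0.14, adjusted p = 0.0681). Neither did Fermt2, kindlin-2 (log2 0.25 ± 0.11, adjusted p = 0.114), or Itgb1bp2, the muscle-specific beta 1 tail binder melusin (log2 -0.75 ± 0.27, adjusted p = 0.0629). Itgb1bp2 had 126 and 137 CPM in fl/fl-Sham, 127 and 120.5 in CKO-Sham, 49.1 and 116 in fl/fl-MI and 83.1 and 56.6 in CKO-MI, so that all MI libraries were below sham. Without fl/fl-MI 2 its log2 fold change was -1.12 ± 0.15 (adjusted p = 0.000931).

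The other members that did not pass overlapped between sham and MI, except Fermt2, for which every MI library was above sham. Levels were 4.18 to 7.72 CPM in sham and 2.89 to 10.6 CPM after MI for Itga8, 3.60 to 7.10 and 1.59 to 4.82 for Itga10, 1.75 to 2.44 and 2.12 to 10.1 for Itga2, and 2.34 to 3.54 and 3.29 to 8.73 for Itgb7. They were 4.28 to 9.29 and 4.48 to 6.74 CPM for Itgb4, 3.77 to 5.75 and 2.10 to 5.81 for Itgb6, 103 to 116 and 69.9 to 112 for Pxn and 139 to 148 and 151 to 196 for Fermt2.

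The calls depended on single libraries to different degrees. Each refit without a library leaves a group with a single library. The share of all called genes that kept the call in every refit is not given. The member counts below therefore cannot be read as particular to adhesion genes. Of the 21 called members, 13 kept the call whichever library was left out (Itga1, Itga5, Itga6, Itgav, Itga9, Itgal, Itgam, Itgb1, Itgb5, Vcl, Parva, Zyx and Lims2). Of the 8 refits that leave out 1 library, the call was kept in 1 for Itgb3, in 2 for Itga11, in 3 for each of Itga4, Itgb2, Tln1 and Ptk2, in 4 for Itgb8 and in 6 for Tln2. All 8 of these members lost it without fl/fl-Sham 2 and without CKO-Sham 1. Their highest adjusted p was 0.113 for Itga11, 0.0899 for Itga4, 0.0671 for Itgb2, 0.135 for Itgb3, 0.0688 for Itgb8, 0.102 for Tln1, 0.0536 for Tln2 and 0.101 for Ptk2. Without fl/fl-Sham 2 or without CKO-Sham 1, 13 members were called in each case (23.1% and 23.7% of all genes), and without fl/fl-MI 2 there were 27 (50.7% of all genes). Across the 17 members called higher, fl/fl-MI 2 was the lowest of the 4 MI libraries for 8 and fl/fl-MI 1 the highest for 11.

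The split between higher and lower depends on the scaling. With TMM scaling 81.0% of the called members were higher, against 54.6% of all called genes. With total counts alone it was 92.6% (25 higher and 2 lower) against 90.1%, with log2(FPKM + 1) 92.0% (23 and 2) against 89.4%, with log2(FPKM + 0.1) 92.6% (25 and 2) against 89.6% and with log2(TPM + 1) 96.6% (28 and 1) against 97.5%. With these 4 other scalings the split among members was near that among all called genes. With relative log expression (RLE) scaling it was not, at 81.0% (17 higher and 4 lower) against 53.1%. This is close to TMM, and the all-gene median with RLE was 0.02. Of the members 71.4% were called higher with total counts, where 52.0% of all genes were, and 5.71% lower, where 5.74% were. With TPM the shares were 80.0% against 76.7% higher and 2.86% against 1.98% lower. The median of all genes moved with it, from 0.03 to 0.59, 0.41, 0.56 and 0.92. Relative to that median, 25 of 35 members were above it under each of these scalings but TPM, where 24 were.

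Ratios between related members do not depend on the scaling of a library. For 7 pairs the ratio of gene FPKM was compared between 4 MI and 4 sham libraries by a two-sided exact permutation test, whose smallest possible p is 0.0286, adjusted over the 7. The ratio passed for 5. Lims1 to Lims2 was 0.326 to 0.354 in sham and 2.15, 0.914, 1.82 and 2.07 in fl/fl-MI 1, fl/fl-MI 2, CKO-MI 1 and CKO-MI 2. PINCH-2 was thus the higher of the pair in each sham library and PINCH-1 in 3 of 4 MI libraries, with a mean change of 4.89-fold.

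Itga11 to Itga1 went from 0.0563 to 0.146 in sham to 0.300 to 1.18 after MI (6.62-fold). Itga5 to Itga7, the fibronectin against the muscle laminin receptor, went from 0.882 to 1.20 to 1.78 to 2.25 (1.95-fold), with the MI libraries close together. Itgb1bp2 to Itgb1, the melusin level per beta 1, fell from 1.07 to 1.38 in sham to 0.236 to 0.726 after MI. Zyx to Vcl fell from 1.82 to 2.39 to 0.965 to 1.68. Each of these 5 had an exact permutation p of 0.0286 and an adjusted p of 0.04 (n = 4 against 4). That p is the smallest possible, and the adjusted value rests on 5 of the 7 reaching it. Each of the 5 pairs holds a member called on the same libraries, so the ratios are not independent of those calls. Single genes separated MI from sham in 20.9% (higher) and 19.5% (lower) of all tested, and ratios of other gene pairs were not tested. Itgb3 to Itgb5 (exact permutation p = 0.0571) and Tln1 to Tln2 (exact permutation p = 0.114) overlapped between sham and MI and did not pass. With 1 library left out no ratio turned its direction, and 3 libraries against 4 are too few to pass the exact permutation test.

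**Figure D4:**
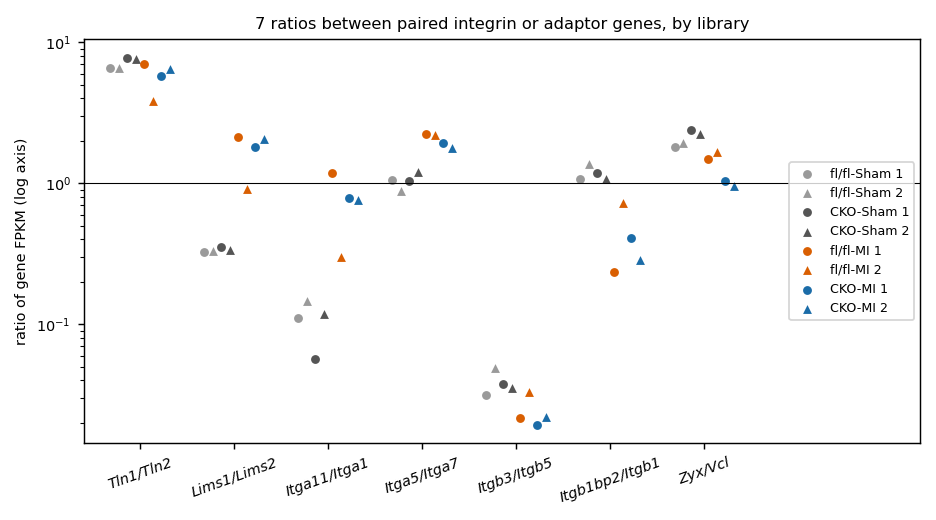
Each point is the ratio of gene FPKM of a pair (x axis) in 1 library, on a log y axis; gray marks sham, orange fl/fl-MI, blue CKO-MI, circles replicate 1 and triangles replicate 2. For Lims1/Lims2, Itga11/Itga1 and Itga5/Itga7 the MI points lie above the sham points, for Itgb1bp2/Itgb1 and Zyx/Vcl below, and fl/fl-MI 2 lies nearest to sham for Lims1/Lims2, Itga11/Itga1, Itgb1bp2/Itgb1 and Zyx/Vcl.

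Transcript FPKM gave the makeup of some genes. Itgb1 and Vcl each had 1 dominant full-length transcript, with 93.2% to 96.0% of the Itgb1 sum in sham and 93.0% to 94.2% after MI for ENSMUST00000090006. For Vcl, ENSMUST00000022369 held 90.7% to 95.3% and 92.1% to 98.3%. For Lims1 the 10-exon ENSMUST00000020078 held most of the sum. The 11-exon ENSMUST00000020077 of Lims1 went from 0.186, 0.572, 0.265 and 0.816 FPKM in the sham libraries to 3.65, 6.71, 12.3 and 7.57 FPKM after MI, in the order fl/fl then CKO. Its share of the Lims1 sum went from 1.32% to 5.06% in sham to 10.9% to 31.7% after MI, without overlap and without a test.

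The 3-exon non-coding Itga6 transcript ENSMUST00000126787 held 50.3% to 58.9% of the Itga6 sum in sham and 32.4% to 41.3% after MI. Its main coding transcript ENSMUST00000028522 was at 8.32 to 11.1 FPKM in sham and 9.76 to 13.6 FPKM after MI, which overlapped. FPKM is not TMM-scaled, unlike the CPM in which Itga6 fell. With log2(FPKM + 0.1) the all-gene median itself rose by 0.56, so this overlap does not show that the coding transcript kept its level. For Itga7, ENSMUST00000218290 held 46.3% and 82.8% in the fl/fl-Sham pair and 72.7% and 24.8% in the fl/fl-MI pair, so its split with ENSMUST00000099112, of nearly the same length, varied between replicates as much as between groups.

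Within each genotype fewer members passed. In the libraries labelled fl/fl (2 MI against 2 sham) 11 members rose and 3 fell, where 10.1% and 8.45% of all genes were called, and in those labelled CKO 7 rose and 2 fell, where 12.8% and 11.9% were called. Both directions together, the CKO calls made up 25.7% of members and 24.7% of all genes, which are close. Vcl, Itga5, Itgav, Itga9, Itgb1 and Parva rose in both, and Itga1 and Lims2 fell in both. The log2 fold change of Vcl was 1.36 ± 0.16 in fl/fl and 1.63 ± 0.16 in CKO, that of Itga5 1.18 ± 0.16 and 0.93 ± 0.16, and that of Lims2 -1.75 ± 0.31 and -2.12 ± 0.31. Itga4, Itgal, Itgam, Itgb2 and Zyx rose and Itga6 fell in fl/fl without passing in CKO, and Itgb5 rose in CKO without passing in fl/fl, which does not show that the genotypes differed. These counts depended on single libraries. The fl/fl count was 0 without either fl/fl-Sham library (at most 0.898% of all genes), 9 without either CKO-Sham library (9.25%) and 25 without fl/fl-MI 2 (29.5%). The CKO count was 0 without CKO-Sham 1 (0.178% of all genes), 3 without CKO-Sham 2 (5.09%) or CKO-MI 1 (8.74%), 4 without CKO-MI 2 (10.1%) and 18 without either fl/fl-MI library (at most 41.3%).

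The test of the difference itself, the interaction of genotype and MI, called no member in edgeR. At an unadjusted p under 0.05 it had 5 members, where 8.49% of all genes tested did so, and DESeq2 called 1 member, Itgal, and 0.927% of all genes. The 5 in edgeR were Itgal, with an interaction of -1.67 ± 0.35 on the log2 scale (edgeR adjusted p = 0.560), Itga4 (-1.16 ± 0.42), Zyx (-0.68 ± 0.25), Itga3 (-1.03 ± 0.39) and Itgb2 (-0.88 ± 0.34). In all 5 the MI change was lower in CKO than in fl/fl. Of all genes tested, 693 were lower in this way and 498 higher at the same unadjusted threshold. Interaction refits depended on which fl/fl-MI library was kept. Without fl/fl-MI 2 the interaction was -0.57 ± 0.21 for Itgb5, 0.03 ± 0.51 for Itga11 and -1.55 ± 0.38 for Itgal. Itgb5 thus had the opposite sign to that without fl/fl-MI 1. The refit without fl/fl-MI 1 leaves fl/fl-MI 2, the library with the high atrial markers, alone in its group. Without fl/fl-MI 1 edgeR called 3 members, Itga11, Itgal and Itgb5, with interactions of 2.59 ± 0.56, -1.76 ± 0.37 and 1.20 ± 0.21, which is 8.57% of members where that refit called 5.35% of all genes.

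No member passed in edgeR when CKO-MI was set against fl/fl-MI (0 of 35 at adjusted p under 0.05, and 0 of all 14028 genes, against 211 of all genes, or 1.5%, with DESeq2). At an unadjusted p under 0.05 there were 4 members, where 8.31% of all genes passed, and DESeq2 called Itgal alone among members. Itgal, whose values are given above, had a log2 fold change of CKO-MI over fl/fl-MI of -1.32 ± 0.25 (edgeR adjusted p = 0.454). Both CKO-MI libraries were below both fl/fl-MI libraries. The next by p were Itga3 (-0.77 ± 0.28), Zyx (-0.46 ± 0.18), Itgax (-1.18 ± 0.50) and Itga7 (0.31 ± 0.14), of which Itga7 was higher in CKO-MI. For Zyx the CKO-MI values of 101 and 78.5 CPM lay below the fl/fl-MI values of 113 and 135 CPM, and for Itga3 CKO-MI was at 12.9 and 10.7 CPM against 15.3 and 24.9 CPM.

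The sign of this comparison was opposite for 16 of 35 members between leaving out fl/fl-MI 1 and leaving out fl/fl-MI 2. Without fl/fl-MI 1, edgeR called 5 members, or 14.3%, which is near the 11.9% of all genes called in that refit. They were Itgb5 (1.32 ± 0.17), Itga11 (1.99 ± 0.45) and Itga1 (0.63 ± 0.15), higher in CKO-MI, and Itgal (-1.41 ± 0.28) and Itga3 (-1.06 ± 0.23), lower in CKO-MI. Without fl/fl-MI 2 it called none, and Itgb5 was -0.45 ± 0.16 and Itga11 -0.57 ± 0.38. Itgal was lower both ways (-1.20 ± 0.29 without fl/fl-MI 2, adjusted p = 0.178).

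**Figure D5:**
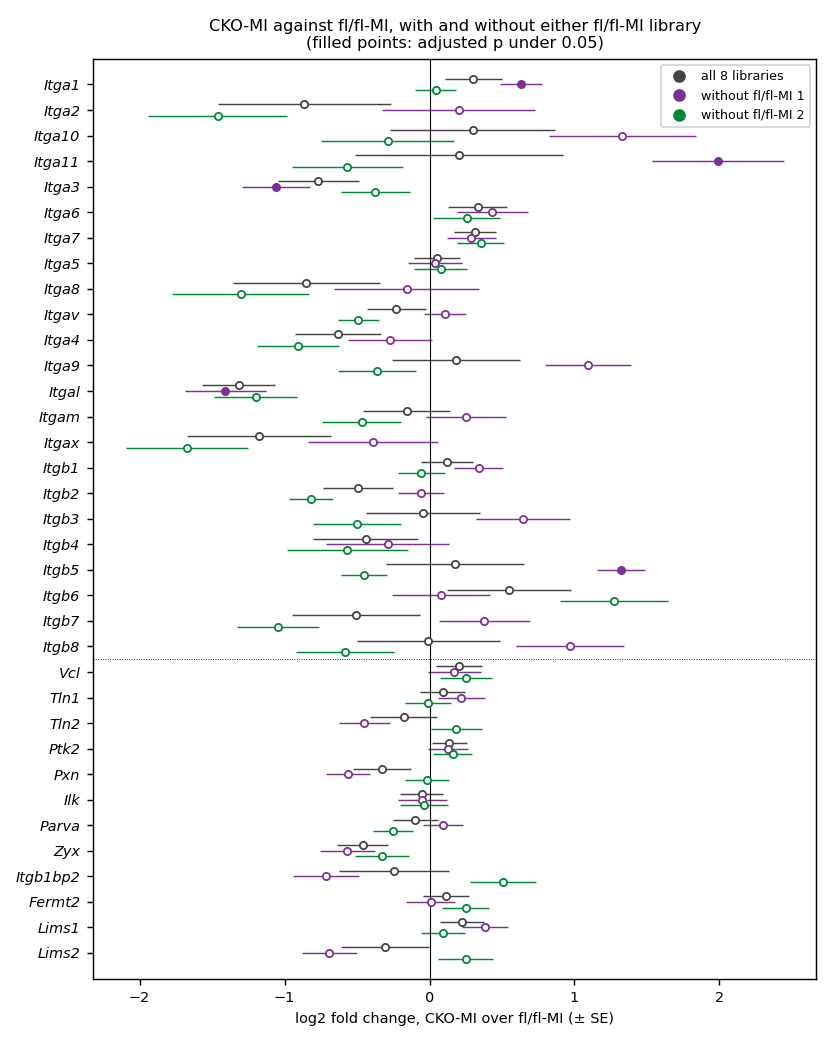
Points are log2 fold changes of CKO-MI over fl/fl-MI and bars their SE (x axis) for the 35 genes (y axis), with all 8 libraries (gray), without fl/fl-MI 1 (purple) and without fl/fl-MI 2 (green); filled points have adjusted p under 0.05. The 5 filled points are all purple, the purple and green points of Itgb5, Itga11 and Itga9 lie on opposite sides of 0, and the 3 points of Itgal lie together on the left.

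Between CKO-Sham and fl/fl-Sham no member passed either (0 of 35 in edgeR and 0 in DESeq2, and 1 and 34 of all genes, the latter 0.242%). At an unadjusted p under 0.05 there was 1 member, Itgam, where 3.89% of all genes passed. Itgam was higher in CKO-Sham by 0.79 ± 0.31 on the log2 scale, followed by Ilk (0.29 ± 0.15), Itga5 (0.30 ± 0.16), Itga4 (0.53 ± 0.30) and Itgb2 (0.39 ± 0.24), all higher in CKO-Sham.

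By level per length the members spanned a wide range in sham. Mean gene FPKM was 56.6 for Itgb1bp2, 48.3 for Itgb1 and 37.6 for Lims2, and the ranges of these 3 over the sham libraries did not overlap. Fermt2 (22.3), Ilk (17.1) and Itgb5 (16.1) came next, and the ranges of Ilk and Itgb5 overlapped, as did those of Tln1, Lims1 and, further down, Itga5, Pxn, Itga7 and Zyx. At the low end were Itgax (0.282), Itga2 (0.235) and Itgb8 (0.191), also with overlapping ranges. After MI the order of means opened with Itgb1 (127), Itgb5 (77.3) and Itgb1bp2 (49.0). The range of Itgb5 over the MI libraries, 29.8 to 119, overlapped those of Itgb1 (97.0 to 149) and Itgb1bp2 (35.1 to 70.5). By mean, Itgb5 moved from rank 6 to rank 2, Vcl from rank 15 to rank 10 and Lims2 from rank 3 to rank 12. Gene FPKM uses a length that differs from that of the transcripts, and with summed transcript FPKM Lims2 stood above Itgb1 in sham and Itga6 at rank 5 instead of 9.

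The rest of the adhesion machinery was read from a list of 56 further genes, of which 52 passed the filter. After MI 24 rose, 6 fell and 22 did not pass, where 22% of all genes were called higher and 18.3% lower, at a median log2 fold change of 0.38. Among the greatest rises were those of Flnc, the muscle filamin (log2 2.41 ± 0.24), Sdc4, the syndecan that works with integrins on fibronectin (1.81 ± 0.37), and Enah, which elongates actin filaments (1.53 ± 0.25). Flnc had 90.0 and 81.3 CPM in fl/fl-Sham, 55.6 and 83.4 in CKO-Sham, 384 and 266 in fl/fl-MI and 649.6 and 382 in CKO-MI, with every MI library above sham. The greatest falls were in Arhgap26 (-0.68 ± 0.19), Sharpin, an inhibitor of integrin activation (-0.60 ± 0.10), Git2 (-0.52 ± 0.10) and Tns2 (-0.50 ± 0.12). Sdc4 was highest in fl/fl-MI 2, at 128 CPM against 23.9 to 41.1 CPM in the other MI libraries.

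Of 35 integrin ligands listed, 30 passed the filter, and 15 rose, 3 fell and 12 did not pass, against the same 22% and 18.3% of all genes, at a median of 0.70. Postn, the periostin of activated fibroblasts (log2 3.91 ± 0.59), Ccn2 (3.56 ± 0.28), Thbs1 (2.71 ± 0.30) and Ccn1 (2.69 ± 0.40), all matricellular proteins that bind integrins, rose most. Ccn2 had 45.9 and 43.2 CPM in fl/fl-Sham, 72.6 and 97.3 in CKO-Sham, 1071 and 849 in fl/fl-MI and 758 and 346 in CKO-MI. Every MI library was above every sham library for Ccn2, and CKO-MI 2 was the lowest of them. Vtn, vitronectin (-1.86 ± 0.21), Icam2, the endothelial ligand of CD11a (-1.49 ± 0.18), and Lama5, a laminin chain of vessel basement membranes (-1.42 ± 0.13), fell. The chains of fibrillar collagen, Col1a1 (1.70 ± 0.38), Col1a2 (2.07 ± 0.35) and Col3a1 (2.27 ± 0.47), and fibronectin, Fn1 (1.69 ± 0.33), rose, and were named after their values were seen.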

How the data were processed

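RNA-seq of mouse myocardium was deposited as tables of genes and of transcripts, each with a count and an FPKM column for all 8 libraries. Per the labels and the study's methods, total RNA was extracted with Trizol, poly(A) RNA was made into dUTP-marked paired-end libraries, and reads were checked with FastQC and trimmed with cutadapt 1.9. The aligner, counter, genome build and annotation are not given in the sources used here. The deposited counts are whole numbers, mostly multiples of 4 at low values, and FPKM values were computed by the authors. All 35 member identifiers are in GENCODE M21 (GRCm38), 31 at the same coordinates.

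Samples were grouped by their titles. The 14028 of 33249 genes whose FPKM averaged 0.5 or more were tested with edgeR 4.0.16 (quasi-likelihood, TMM scaling, all 8 libraries, a mean for each group), with Benjamini-Hochberg adjusted p under 0.05 over all of them as a call, in R 4.3.3. SE is the absolute log2 fold change divided by the square root of F. The fit was tested on simulated data. TPM was computed from FPKM. Ratios were tested by exact permutation in SciPy 1.17.1. DESeq2 1.42.0 and limma 3.58.1 (log2 of FPKM or TPM with a pseudocount of 1 or 0.1), other scalings and filters, and each library left out were alternatives. Values in every library are given for each called member, and for the 5 members with the lowest p between genotypes; of the further lists, the 4 called genes with the greatest change each way are named, except 1 that is not reported here. The members and lists were chosen with earlier results of these data known. No count interval is given, since counts are not single molecules, and n = 2 per group limits the precision.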

Additional observations from a re-analysis of the deposited data

Results flagged for a closer look

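In each of the 35 members the 4 sham and the 4 MI libraries were checked for a library far from the other 3, by the gap to its neighbor over the whole range on the log2 scale, against Dixon's 95% limit. Of 70 such groups 1 was past it, where chance alone would mark about 1 in 20. Itga1 in fl/fl-MI 2 was at 38.4 CPM, below the 56.9 to 59.4 CPM of the other MI libraries, with a gap of 0.904 of the range. This is the library with the high atrial markers.

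Both CKO-Sham libraries were on one side of fl/fl-Sham and both CKO-MI libraries on the other side of fl/fl-MI for 2 members, and this difference was not called by the interaction test. The share of all genes with this pattern was not counted. The pattern therefore cannot be read as particular to these members. Zyx was higher in CKO-Sham (log2 ratio of means 0.22) and lower in CKO-MI (-0.46), a difference of -0.685, with an adjusted edgeR p of 0.574 for the interaction. Ptk2 was lower in CKO-Sham (-0.05) and higher in CKO-MI (0.13), a difference of 0.182, with an adjusted edgeR p of 0.804.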

How the results depend on the processing

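In MI against sham over both genotypes (21 members called), normalization, tool and low-value filter gave 21 to 29 calls, except 13 with a mean FPKM of at least 5, which left 17 members to test, and leaving out 1 library gave 13 to 27. For fl/fl alone (14 called) there were 25 with total counts, 22 with DESeq2, 22 with log2(FPKM + 0.1), 27 with TPM, 9 with a mean FPKM of at least 5, 1 with only its 4 libraries in the fit and 0 to 25 with 1 library left out. For CKO alone (9 called) there were 19 with total counts, 15 with DESeq2, 16 with log2(FPKM + 1), 17 with log2(FPKM + 0.1), 24 with TPM, 16 with only its 4 libraries and 0 to 18 with 1 library left out. Between genotypes after MI (0 called) there was 1 with DESeq2 and 0 to 5 with 1 library left out, for the interaction (0 called) 1 with DESeq2 and 0 to 3, and for sham 0 throughout. The 5 ratios that passed also passed with TMM-scaled CPM per kilobase. A lone library left in a group was assumed to vary like the others. The settings also changed how many of all genes were called. With TPM over both genotypes most of all genes were called higher, as given above. All-gene counts within each genotype under the other scalings and tools are not given. The member counts here therefore cannot be read as particular to adhesion genes. With TPM, the members whose sign turned included Itga1 (0.024), Itga6 (0.31), Itgb4 (0.49), Ptk2 (0.70) and Pxn (0.70). The sign of Ptk2 also turned with total counts (0.25), log2(FPKM + 1) (0.20) and log2(FPKM + 0.1) (0.26). Under these settings the all-gene median log2 change was 0.41 to 0.92. Other members turned too and are not listed here. Members with a positive change numbered 25 with TMM and 34 with TPM. They numbered 31 with total counts, 31 with log2(FPKM + 1) and 30 with log2(FPKM + 0.1). For the other changes the cause was not tested. Same-numbered libraries did not deviate together (correlations of -0.20 to 0.05), so the replicate numbers were not taken as pairs. With the replicate block there were 19, 11 and 8 calls in the MI comparisons and 0 in the 3 involving genotype, and with the numbers crossed, a choice made after seeing the data, 0 between genotypes after MI. With 2 libraries a group, genes at a few CPM have wide errors.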
